A study of Raphanus sativus with 9 samples.

Results

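In radish (*Raphanus sativus* cv. Taebaek), 233 of the 64657 genes listed had more transcripts at the end of a cold treatment than before it, and then fewer transcripts after the return to warmth than at the start. These genes were chosen by their measured values. Read counts were converted to CPM (reads of a gene scaled to a common number of reads on genes per library), averaged over the libraries of a time point, and raised by 0.1 CPM, and a gene was taken when this value was at least 2-fold above the start in the cold, at least 2-fold below the start after the cold, and at least 2 CPM in the cold. Of the 2 identifiers that the rule leaves out, RSG09585 (*RsMYB29b*) met the 3 limits and RSG53581 (*RsMYB28c*) did not. The differences between time points among the 233 members are therefore given as a description, without a test.

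Plants were sampled at 3 time points: before vernalization (BV), at 4 weeks of age, grown in a greenhouse without cold; during vernalization (V), at 8 weeks of age, after 4 weeks (28 days) of cold; and after vernalization (AV), at 10 weeks of age, after the same cold and 2 further weeks (14 days) in warmth. The study states 3 biological replicates per time point and names leaf and root tissue, whereas the extraction text of the labels names whole seedlings. Warm-grown plants of 8 or 10 weeks were not analysed here, so that the age of the plants and the vernalization treatment cannot be told apart. The study's cold room also had its own light period under sodium light, and V was sampled at the end of the cold. The light and the cold itself therefore cannot be told apart either. A library does not separate leaf RNA from root RNA, and fewer cells of a type cannot be told apart from less RNA per cell. The tissues could not be checked against marker genes, because the RSG identifiers carry no symbols except in the study's table of glucosinolate genes.

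Vernalization makes plants competent to flower: in *Arabidopsis*, long cold silences the floral repressor gene *FLC*, which stays off once the plants are warm again. Radish and its relatives also make glucosinolates (GSLs), sulfur-containing defense compounds that fall into aliphatic and indolic kinds by the amino acid they are made from. In *Arabidopsis*, MYB28 and MYB29 are transcription factors (TFs) that activate aliphatic GSLs genes, while MYB34, MYB51, and MYB122 activate indolic GSLs genes. Intact GSLs are split by myrosinases, enzymes encoded in *Arabidopsis* by *TGG1* and *TGG2*, when tissue is damaged. The atypical myrosinase PEN2 and the transporter PEN3 act together in *Arabidopsis* in a defense against microbes that uses indolic GSLs in living cells. Only 3 members appear in the table of GSLs genes, namely *RsMYB34c*, *RsTGG1e*, and *RsTGG1f*, while the other 230 carry an identifier alone, and no role is given to these here.

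Between 21119531 and 27606212 reads were counted on genes in each of the 9 libraries deposited. AV replicates 2 and 3 listed different counts in only 376 genes, 1 of them a member. Among genes to which the pair gave 40 counts or more, 98.7% had equal counts in both, against 0.359% to 0.899% in the other pairs of libraries. These 2 libraries thus differed by less than the sampling noise and were counted as 1 sample, which left 8 libraries (n = 3 in BV, n = 3 in V, and n = 2 in AV), and the rule above uses AV replicates 1 and 2. The study lists different read totals for the near-identical pair, so that either file may not hold the sample its label names. Detection was set at a floor of 3 counts, which is 0.109 to 0.142 CPM by library. Floors and intervals cover counting error only.

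The members were a small part of the genes that were higher in the cold. Of 2717 genes that were at least 2-fold higher in V than in BV and reached 2 CPM in V, 234 (8.61%) were at least 2-fold lower in AV than in BV, namely the members and *RsMYB29b*. A further 1444 (53.1%) were within 2-fold of BV in AV, and 1039 (38.2%) were still at least 2-fold higher in AV than in BV. Seen from the other end, 2867 genes with at least 2 CPM in BV were at least 2-fold lower in AV than in BV. Of these, 154 (5.37%) were at least 2-fold higher in V than in BV, 1285 (44.8%) were within 2-fold of BV in V, and 1428 (49.8%) were already at least 2-fold lower in V.

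**Figure D1:**
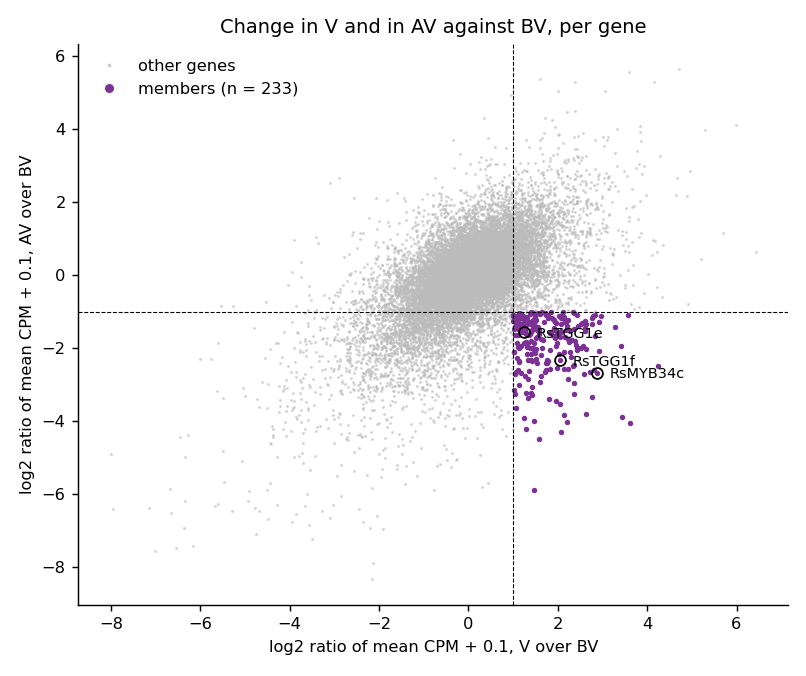
Each point is a gene, with the log2 ratio of mean CPM + 0.1 in V over BV on the horizontal axis and in AV over BV on the vertical axis. The 233 members (purple) lie by construction beyond both dashed 2-fold lines at the lower right, and the circles mark the 3 members of the table of GSLs genes.

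The median member was 3.04-fold higher in V than in BV, with quartiles of 2.47 and 4.42 and a largest ratio of 18.9. The median member was 3.06-fold lower in AV than in BV, with quartiles of 2.43 and 5.02 and a largest ratio of 59.4. Both steps were moderate for most members: 157 were less than 4-fold higher in V, 70 were 4-fold to 8-fold higher, and 6 were at least 8-fold higher. In AV, 149 were less than 4-fold below BV, 59 were 4-fold to 8-fold below, and 25 were at least 8-fold below. Only 31 members reached 4-fold at both steps, and 104 stayed under 4-fold at both. The span between V and AV was wider, with a median ratio of 11.1 and a range of 4.29 to 204.

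Together the members took 0.360%, 0.339%, and 0.339% of the reads on genes in the BV libraries, 1.10%, 0.970%, and 1.10% in the V libraries, and 0.114% and 0.109% in the AV libraries. The rule fixes the order of these shares. Without the 2 members with the most reads they were 0.264% to 0.288% in BV, 0.826% to 0.887% in V, and 0.0859% to 0.0883% in AV. The median member had 76.3 counts in BV, 259 counts in V, and 22 counts in AV, so that the AV values rest on the fewest reads.

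The rule used means, and the values of the single libraries are given here as a description. Set against the BV mean, the median log2 ratio of the members was between -0.02 and 0.04 in the BV libraries, 1.64, 1.53, and 1.71 in the V libraries, and -1.77 and -1.76 in the AV libraries. All 233 members were above the BV mean in V replicates 1 and 3 and 232 in V replicate 2, and none was above it in either AV library. The libraries of V and BV did not overlap for 230 members, with V higher, which held for 26.2% of the 32043 genes tested. The libraries of AV and BV did not overlap for 225 members, with AV lower, against 26.1% of the genes tested. Both held for 223 members, against 3.24% of the genes tested. The rule chose the members by the means of these same libraries, so that nothing is read from these counts.

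**Figure D2:**
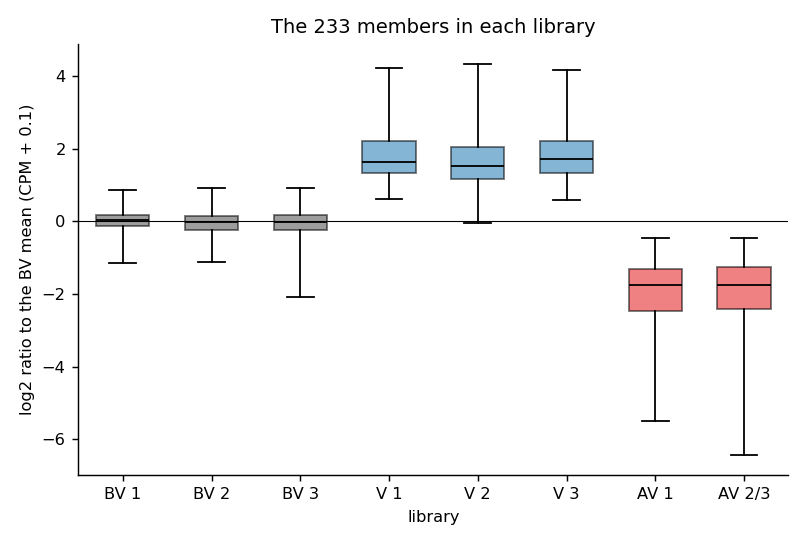
Boxes show the log2 ratio of CPM + 0.1 in each library to the BV mean over the 233 members, with the quartiles, the median as a line, and whiskers to the lowest and highest member. The medians of the V libraries lie between 1.53 and 1.71 and those of the AV libraries at -1.77 and -1.76.

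Because the rule used these same contrasts, calls of members are bound to be frequent, and the fit across all genes is given only as a description of their number and size. The 8 libraries were fitted with edgeR, and a gene was called at an adjusted p under 0.05. In V/BV 232 members were called higher, where 19.2% of all genes tested were. In AV/BV 223 members were called lower, against 19.8% of all genes tested, and in AV/V all 233 were, against 16.9%. In all 3 comparisons together 223 members were called, against 1.77% of all genes tested. The median log2 fold change of the members was 1.59 in V/BV and -1.94 in AV/BV, with median standard errors of 0.25 and 0.34, while the medians over all genes tested were 0.01 and 0.

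The members outside these calls had few reads. In V/BV the exception was RSG54005, with a log2 fold change of 1.12 ± 0.43 (SE) and at most 32 counts in a BV library. The 10 exceptions in AV/BV had 10 to 37 counts in their highest BV library, and RSG54005 was 1 of them. Some other members with as few reads in BV were called lower in AV/BV.

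*RsMYB34c* (RSG19787), a homolog of the *Arabidopsis* regulator of indolic GSLs genes, was low before the cold, higher in the cold, and at or below the detection floor after it. Its level was 1.04, 0.754, and 0.943 CPM in BV and 9.27, 4.50, and 8.19 CPM in V, and it had 2 counts in AV replicate 1 and 1 count in AV replicates 2 and 3 averaged. Every V library was above every BV library, and V replicate 2 was the lowest of the 3 V libraries. The log2 fold change in V/BV was 2.95 ± 0.31 (SE). Set against the floor of 3 counts per library, the gene was lower in AV than in BV by at least 7.86-fold and lower in AV than in V by at least 63.1-fold. Of all reads on the 3 *RsMYB34* homologs, *RsMYB34c* took 27 of 153, 16 of 134, and 24 of 117 in the BV libraries, 256 of 409, 95 of 206, and 182 of 357 in the V libraries, and 2 of 178 and 1 of 186 in the AV libraries.

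None of the 6 other homologs of indolic TFs was called both higher in V/BV and lower in AV/BV, where 1.77% of all genes tested were, members included. For 6 genes this is near that share, and nothing is read from it. In V/BV 2 of the 6 were higher and 0 lower, against 19.2% and 19.3% of all genes tested. In AV/BV 3 were higher and 0 lower, against 17.0% and 19.8%. These calls are by the quasi-likelihood test of edgeR after Benjamini-Hochberg adjustment. *RsMYB34b* (RSG52510) was the nearest to being called in both: it had 1.05, 0.947, and 1.44 CPM in V, against 0.384, 0.565, and 0.314 CPM in BV. Its log2 fold change in V/BV was 1.41 ± 0.47 (SE), with an adjusted p of 0.0268 in edgeR, and this call was lost without BV replicate 1, BV replicate 3, V replicate 1, or V replicate 3 (log2 fold changes of 1.24 to 1.48). In AV it had 0.307 and 0.156 CPM, and its log2 fold change in AV/BV of -0.91 ± 0.62 (SE) did not pass the test (adjusted p = 0.269 in edgeR).

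*RsMYB122* (RSG07389) stayed high after the cold. It had 2.69, 1.84, and 2.48 CPM in BV, 5.61, 5.78, and 6.12 CPM in V, and 6.56 and 5.61 CPM in AV. Its log2 fold changes were 1.28 ± 0.23 (SE) in V/BV and 1.29 ± 0.25 (SE) in AV/BV, with adjusted p of 0.000455 and 0.00093 in edgeR. *RsMYB51a* (RSG34945) and *RsMYB51b* (RSG38989) rose after the cold, where the log2 fold changes in AV/V were 1.48 ± 0.27 and 1.902 ± 0.20 (SE), with adjusted p of 0.000668 and 3.34e-06 in edgeR. In V/BV they were -0.26 ± 0.26 and -0.05 ± 0.19 (SE), and neither passed the test. *RsMYB34a* (RSG13843) and *RsMYB51c* (RSG03560) passed the test in no comparison.

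The 2 other annotated members encode homologs of the myrosinase TGG1. *RsTGG1e* (RSG36879) had 77.1, 81.8, and 84.5 CPM in BV, 185, 193, and 196 CPM in V, and 26.6 and 28.1 CPM in AV. The libraries of each time point lay close together and those of different time points far apart. The log2 fold changes were 1.21 ± 0.14 (SE) in V/BV and -1.66 ± 0.17 (SE) in AV/BV. *RsTGG1f* (RSG40666) had 8.76, 7.92, and 4.40 CPM in BV, 29.1, 30.9, and 28.7 CPM in V, and 1.11 and 1.52 CPM in AV. No libraries of different time points overlapped here either, although BV replicate 3 was lower than the other BV libraries. Its log2 fold changes were 2.05 ± 0.23 (SE) in V/BV and -2.50 ± 0.30 (SE) in AV/BV.

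Most of the rest of the myrosinase family moved the other way in the cold. Of the 9 other homologs of *TGG1* and *TGG2*, 8 were lower in V/BV (against 19.3% of all genes tested) and 9 lower in AV/BV (against 19.8%). These calls are by the quasi-likelihood test of edgeR after Benjamini-Hochberg adjustment, and the median log2 fold changes of the 9 homologs were -2.48 and -3.34. The AV/BV call of 1 of them, *RsTGG1h* (RSG52100), at -0.71 ± 0.18 (SE), was lost without AV replicate 2 (-0.63). *RsTGG1c* (RSG30299) had 1176, 1529, and 915 CPM in BV, 81.5, 87.2, and 75.03 CPM in V, and 96.3 and 102 CPM in AV. It was thus far lower in every V and AV library than in any BV library, with log2 fold changes of -3.92 ± 0.20 (SE) in V/BV and -3.69 ± 0.24 (SE) in AV/BV (adjusted p of 2.17e-09 and 1.93e-08 in edgeR). *RsTGG1b* (RSG25390) was the exception in the cold, with overlapping levels in V and BV, and fell in AV: it had 24.1, 26.0, and 16.0 CPM in BV, 24.6, 26.5, and 25.4 CPM in V, and 0.998 and 2.10 CPM in AV. Its log2 fold change was 0.18 ± 0.21 (SE) in V/BV (adjusted p = 0.529 in edgeR) and -3.91 ± 0.31 (SE) in AV/BV (adjusted p = 1.33e-07 in edgeR). When a library was left out the AV/BV value was between -4.52 (without AV replicate 2) and -3.49.

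Across the 11 myrosinase homologs, the reads on *RsTGG1e* and *RsTGG1f* made up 2.52%, 2.29%, and 3.34% of the family's reads in BV, 28.1%, 26.7%, and 29.0% in V, and 5.75% and 5.73% in AV. The 95% Wilson intervals lay between 2.19% and 3.48% in BV, between 26.0% and 29.7% in V, and between 5.35% and 6.17% in AV. The family as a whole had 3402, 3917, and 2661 CPM in BV, 763, 838, and 774 CPM in V, and 483 and 516 CPM in AV. That this share was highest in V follows in part from the rule, which chose both genes by these values, and it is given as a description. The family's total, most of which comes from the other homologs, was lower in V and AV than in BV. Reads that align to several places are left out by the counting tool, so that close homologs can lose reads, and the strand and counting mode used are not given in the sources used here.

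The remaining genes of the GSLs breakdown list, 1 homolog of *PEN2* and 3 of *PEN3*, differed from the members after the cold. All 4 were higher in AV/BV, with log2 fold changes of 1.31 ± 0.17 for *RsPEN2* (RSG16059), 2.46 ± 0.30 for *RsPEN3a* (RSG17445), 2.10 ± 0.17 for *RsPEN3b* (RSG04372), and 1.77 ± 0.24 for *RsPEN3c* (RSG05840) (SE), and 3 of them were higher in V/BV. Among all genes tested, 17.0% were higher in AV/BV and 19.2% higher in V/BV. *RsPEN3b* had a log2 fold change of 0.12 ± 0.16 (SE) in V/BV and did not pass the test. The call for *RsPEN2* in V/BV, at 0.47 ± 0.15 (SE) with an adjusted p of 0.0213 in edgeR, was lost without BV replicate 1, BV replicate 2, or V replicate 3 (log2 fold changes of 0.43 to 0.48).

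**Figure D3:**
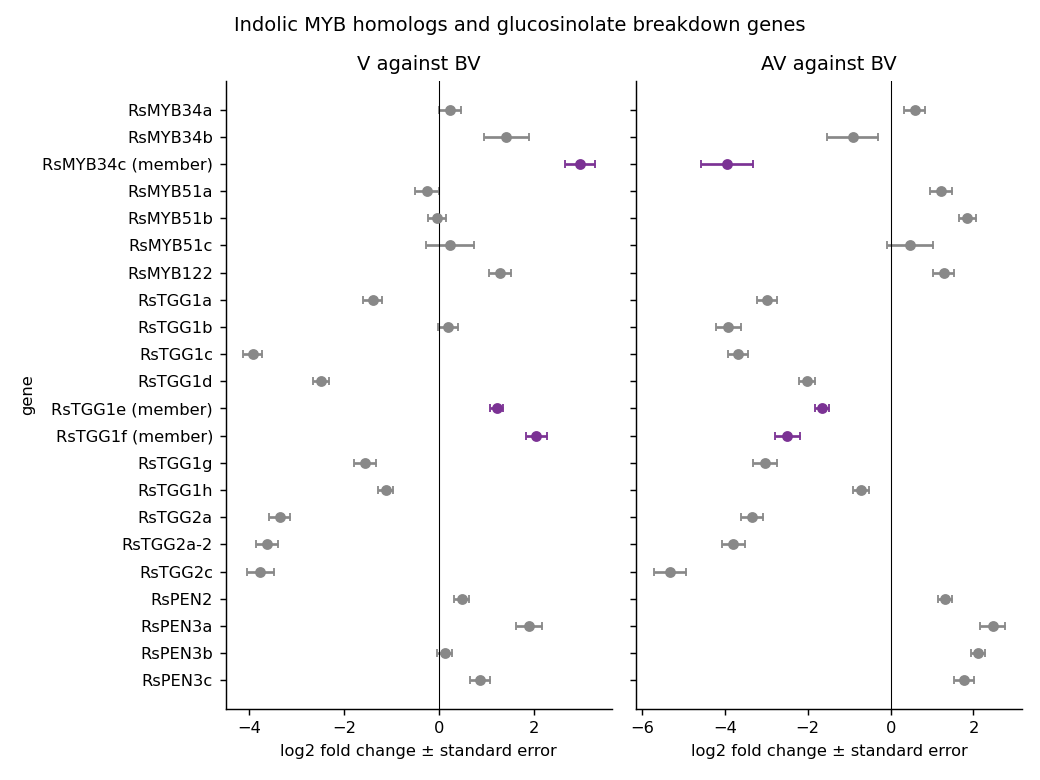
Points are log2 fold changes and bars are standard errors from edgeR for the homologs of indolic TFs and the GSLs breakdown genes, in V against BV (left) and AV against BV (right), with the 3 members in purple. *RsTGG1e* and *RsTGG1f* lie at 1.21 and 2.05 in V against BV, where 8 of the 9 other *TGG* homologs lie below 0; the AV value of *RsMYB34c* rests on at most 2 counts per AV library and is no measure of size.

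Over the whole table of GSLs genes, 84 genes outside the members were tested, and 3 of them were called higher in V/BV and lower in AV/BV, where 1.77% of all genes tested were. That share includes the members, which the 84 genes do not, so the sets are not alike. The 3 genes called are all homologs of the aliphatic TFs, *RsMYB28a* (RSG16088), *RsMYB28c*, and *RsMYB29b*. Their log2 fold changes in V/BV were 0.56 ± 0.15, 0.77 ± 0.18, and 0.98 ± 0.19 (SE), each under 2-fold in the fit. *RsMYB29b* had 22.6, 19.8, and 17.5 CPM in BV, 39.6, 42.8, and 38.1 CPM in V, and 2.11 and 3.93 CPM in AV, a ratio of 2.00 in V/BV by the rule's measure.

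Among the members without a symbol, RSG06865 and RSG23960 had the largest log2 fold changes in V/BV. RSG06865 had 5.46, 4.43, and 7.54 CPM in BV, 111, 120, and 105 CPM in V, and 1.57 and 0.311 CPM in AV. RSG23960 had 4.50, 5.47, and 4.28 CPM in BV, 54.5, 65.9, and 58.7 CPM in V, and 0.192 and 0.195 CPM in AV. Both were low in every BV library, high in every V library, and lower again in both AV libraries than in any BV library. The log2 fold changes in V/BV were 4.23 ± 0.31 (SE) for RSG06865 and 3.63 ± 0.18 (SE) for RSG23960, and those in AV/BV were -2.70 ± 0.41 and -4.66 ± 0.32 (SE). For RSG06865 the size of the AV step depended on the library, since its AV libraries held 41 and 8 counts: the log2 fold change in AV/BV was -4.32 without AV replicate 1 and -1.96 without AV replicate 2.

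RSG00346 and RSG03974 had the most negative log2 fold changes in AV/BV among the members above the floor in every AV library. RSG00346 had 38.9, 33.6, and 34.3 CPM in BV, 101, 70.7, and 125 CPM in V, and 0.691 and 0.311 CPM in AV. RSG03974 had 6.42, 4.81, and 6.95 CPM in BV, 16.2, 13.7, and 14.9 CPM in V, and 0.153 and 0.311 CPM in AV. For both genes the step in the cold was small beside the step after it. The log2 fold changes in AV/BV were -6.22 ± 0.35 and -4.77 ± 0.36 (SE), against 1.44 ± 0.20 and 1.26 ± 0.21 (SE) in V/BV. When a library was left out the AV/BV value of RSG00346 was between -6.92 (without AV replicate 1) and -5.74. For RSG03974, which had only 4 and 8 counts in the AV libraries, the AV/BV value was then between -5.33 and -4.38.

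In 27 members (11.6%) both AV libraries were at or below 3 counts, and 10 of these had no count in AV at all, whereas no member was at the floor in every BV library. The 2 with the most reads in BV among these 27 were RSG12544 and RSG28905. RSG12544 had 2.04, 3.11, and 2.16 CPM in BV, 10.9, 9.90, and 12.5 CPM in V, and 2 counts in each AV library. RSG28905 had 2.77, 2.59, and 1.10 CPM in BV, 10.5, 10.1, and 10.1 CPM in V, and 2 and 0 counts in the AV libraries. Both genes were thus detected in every BV and V library and not above the floor in AV. RSG12544 was lower in AV than in BV by at least 21.01-fold and lower in AV than in V by at least 95.7-fold, and for RSG28905 these bounds were 18.6-fold and 88.5-fold.

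The 2 members with the most reads in V were RSG31228 and RSG10111. RSG31228 had 337, 356, and 365 CPM in BV, 1290, 938, and 1288 CPM in V, and 73.4 and 59.3 CPM in AV, and its log2 fold changes were 1.70 ± 0.17 (SE) in V/BV and -2.50 ± 0.21 (SE) in AV/BV. RSG10111 had 379, 381, and 393 CPM in BV, 921, 494, and 897 CPM in V, and 182 and 173 CPM in AV, and its log2 fold changes were 0.96 ± 0.20 (SE) in V/BV and -1.20 ± 0.23 (SE) in AV/BV. Both genes varied little among the BV libraries, while V replicate 2 was the lowest of the V libraries in both.

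**Figure D4:**
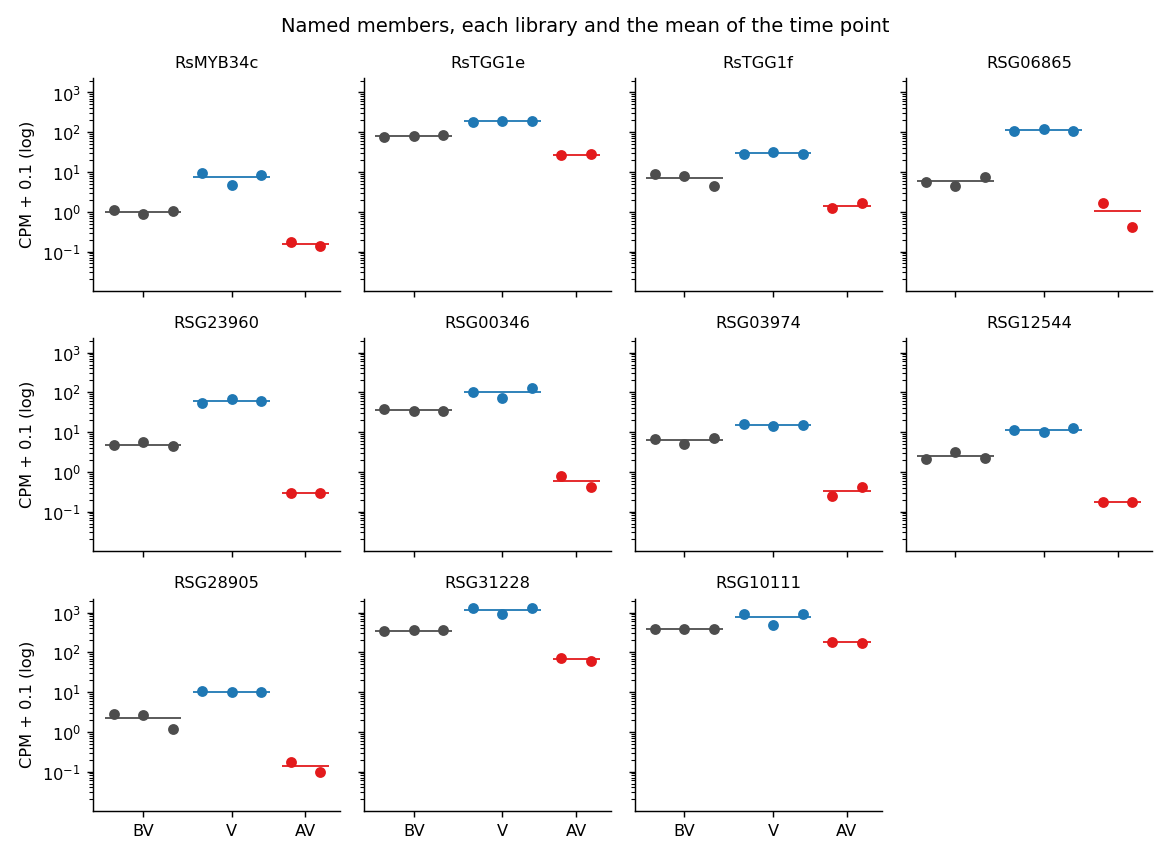
Each panel is 1 member, with CPM + 0.1 on a log axis, a point for each library of BV (n = 3), V (n = 3), and AV (n = 2), and a line at the mean of the time point. In all 11 panels the V libraries lie above the BV libraries and the AV libraries below them, from RSG28905 with 2 and 0 counts in AV to RSG31228 with 1290 CPM in V replicate 1.

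The limits of the rule cut through a continuous range. At the limit between V and BV, RSG42225 was just inside with a ratio of 2.001 and RSG13221 just outside with a ratio of 1.996. At the limit between AV and BV, RSG32626 was just inside with a ratio of 0.4999 and RSG29574 just outside with a ratio of 0.5003. At the minimum level in V, RSG22779 was just inside with 2.0004 CPM and RSG10201 just outside with 1.935 CPM, both including the added 0.1 CPM. RSG32626 and RSG22779 were among the 10 members not called in AV/BV.

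The spread between replicates was not used by the rule. The median SD of log2(CPM + 0.5) within a time point was 0.239 over the members in BV, 0.171 in V, and 0.211 in AV, against 0.243, 0.195, and 0.146 over all genes tested. In AV, where the members spread more widely than all genes tested, their median count was 22, against 253 over all genes tested, and the part of the counts in the spread was not tested. In V, 15 members (6.44%) differed by at least 2-fold between their highest and lowest library, against 3.74% of all genes tested, and in BV 21 members (9.01%) did, against 7.99%.

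Within V, replicate 2 stood below the others more often than above them. It was at least 1.5-fold below both V replicates 1 and 3 in 31 members (13.3%), against 7.07% of all genes tested, and at least 1.5-fold above both in 9 members (3.86%), against 2.65%. The 31 members had a median ratio of 3.54 in V/BV, against 2.97 in the 193 members with no such difference, and *RsMYB34c* and RSG10111 show this course in the values above. V replicate 2 also had the lowest share of reads on no gene, 3.24%, against 7.67% and 5.83% in V replicates 1 and 3, and the part of this in the members' values was not tested. Applied without V replicate 2, the rule found 246 genes, 223 of them members.

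**Figure D5:**
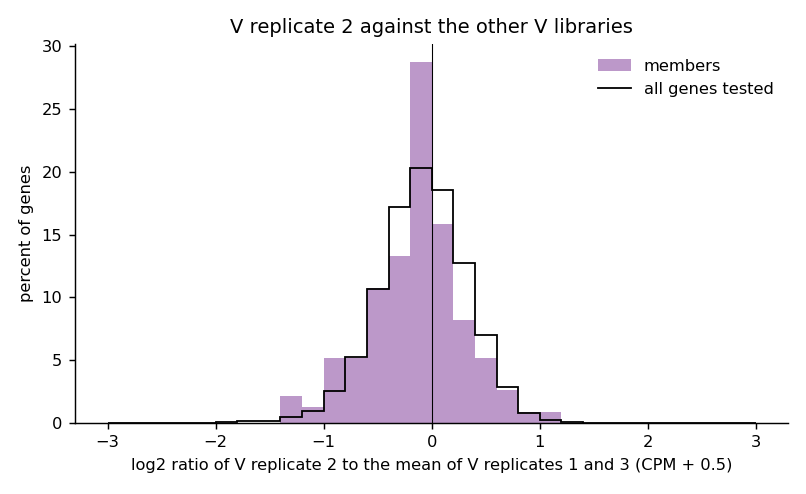
The histogram gives the percent of genes by the log2 ratio of V replicate 2 to the mean of V replicates 1 and 3 (CPM + 0.5), for the 233 members (filled) and all 32043 genes tested (line). The medians are -0.11 for the members and -0.07 for all genes tested.

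Some members had neighbouring identifiers. Of the 233, 8 (3.43%) carried an RSG number 1 apart from that of another member, in 4 pairs, and 25 (10.7%) had another member within 5 numbers. Among the 2717 genes at least 2-fold higher in V, 15.1% and 43.7% had such a neighbour in their own set. That set is larger and so lies denser in the numbers, and the shares are not alike in this. Positions in the genome were not used here, and no closeness in the genome is read from the numbers. The only group of 3 within this distance, chosen after its values were seen, was RSG06550, RSG06553, and RSG06554. RSG06553 had 11.9, 12.7, and 12.6 CPM in BV, 24.7, 27.0, and 26.7 CPM in V, and 1.15 and 0.662 CPM in AV. RSG06554 had 11.1, 9.57, and 12.0 CPM in BV, 52.6, 31.6, and 53.3 CPM in V, and 0.537 and 0.389 CPM in AV. By the rule's measure RSG06554 was 4.18-fold and RSG06553 2.10-fold higher in V than in BV, and V replicate 2 was the lowest V library for RSG06554 but not for RSG06553. RSG06550 had only 2 to 8 counts in a BV library, 41 to 57 counts in a V library, and at most 1 count in an AV library.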

How the data were processed

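RNA of 9 radish libraries, 3 per time point, was sequenced as stranded mRNA libraries. After quality control with FastQC and trimming, the authors aligned the reads with Tophat2 to the Nodai radish genome. They deposited unnormalized counts of reads per gene made by HTSeq-count. The strand and counting mode are not given in the sources used here. Reads assigned to no gene (3.24% to 7.67% for no feature, 0.974% to 1.59% for reads that align to several places) were left out of the totals. The members and gene lists were chosen with earlier results of these data known.

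Printed levels are CPM on library totals. Log2 fold changes are from edgeR 4.0.16 under R 4.3.3: TMM, filterByExpr (32043 genes left), glmQLFit with robust estimation over the 8 libraries, and glmQLFTest, with p-values adjusted by Benjamini-Hochberg over every gene that passed the filter. A gene was called when its adjusted p was under 0.05, whatever its fold change. SE is the fold change divided by the root of the F statistic. The p-values measure the spread between these samples.

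Genes were named by a rule: all members in the table of GSLs genes, the 2 members with the largest V/BV, the 2 with the lowest AV/BV above the floor, the 2 with the most BV counts among those at the floor in AV, the 2 with the most reads in V, the genes at each limit, the members of any run of 3 consecutive identifiers (there was none), and the genes of the breakdown and indolic TF lists. *RsMYB28a*, *RsMYB28c*, and *RsMYB29b* were named outside it, after their values were seen. The distance of 5 between identifiers and the contrast of V replicate 2 with the other V libraries were chosen after seeing the data. The alternatives were other scalings, filters, tests (DESeq2 1.42.0 and edgeR's likelihood ratio test), thresholds, limits of the rule, 9 libraries, a fit of only the compared groups, a replicate block, and each library left out. No RSG identifier of a member matched the RefSeq table (0 matches), so no sequences, positions, or gene lengths were used. Genes were set beside each other only by their reads, as in the shares of a family, and these are not corrected for gene length.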

Additional observations from a re-analysis of the deposited data

How the results depend on the processing

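The number of genes found depended on the limits. With 1 CPM added in place of 0.1 CPM the rule found 107 genes, with a minimum of 10 CPM in V 124, with limits of 1.5-fold 587, with limits of 3-fold 64, and with the limits set between the nearest libraries 85. Other scalings found 240 to 251 genes, 221 to 227 of them members, and leaving out a library found 223 to 265. When a library was left out, V/BV called 222 to 232 members. In AV/BV at least 1 of these fits called fewer members than the 223 of the main fit. Leaving out an AV library leaves 1 library in that group, so that no number of AV/BV calls is given for these fits. Every member that could be fitted kept its direction in every alternative fit. The rule chose the members by these same libraries, so that nothing is read from these calls and directions. Library totals in place of TMM moved the median of all genes tested by 0.03 to 0.09 on the log2 scale. The replicate numbers were not taken as pairs, and whether they pair the samples was not tested. The deviations of the same-numbered BV and V libraries correlated at 0.05, 0.23, and 0.11, and those of differently numbered ones at -0.19 to 0.15. Same-numbered AV libraries correlated at -0.16 and -0.04 with BV and at -0.04 and 0.01 with V. With only 2 AV libraries, the deviations of 1 are those of the other with the sign changed. The AV values therefore cannot show whether the numbers pair the samples. The replicate block left 232 members called higher in V/BV, with 222 lower in AV/BV and 233 lower in AV/V.

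Among the lists, the 3 other breakdown genes higher in V/BV became 1 with a minimum log2 fold change of 1, and the 3 other GSLs genes higher in V/BV and lower in AV/BV became 0. The 2 other indolic TFs higher in V/BV became 1 with more than 1 CPM asked for in at least 3 libraries or an adjusted p under 0.01, and 1 to 2 when a library was left out. The 3 other breakdown genes higher in AV/V became 5 in a fit of only the compared groups, 1 with a minimum log2 fold change of 1, and 2 to 5 when a library was left out. The 1 other indolic TF lower in AV/V (*RsMYB34b*) became 0 with more than 1 CPM asked for in at least 3 libraries, and 0 to 1 when a library was left out, being lost without AV replicate 2. *RsMYB51c*, with at most 24 counts in a library, had a log2 fold change in AV/BV of 0.47, within the error, and of -0.18 to 0.91 when a library was left out, with the lowest value without AV replicate 2. The causes were not tested. The 22 median counts of the members in AV limit the size of their AV/BV values.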
